A study of Mus musculus with 6 samples.

Results

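The genes of the SWI/SNF chromatin remodelling complex were examined in lineage-depleted bone marrow of wild-type and Utx-knockout mice. They were 9 genes of 21887 protein-coding genes: the ATPases Smarca4 and Smarca2, the core subunits Smarcc1, Smarcb1 and Smarcd2, the BAF subunits Arid1a and Arid1b, and the PBAF subunits Arid2 and Pbrm1. They were chosen by name as subunits of the complex, and every open-chromatin peak in or within 20 kb of their RefSeq gene spans on mm10 was taken. Overlapping peaks (1 bp or more) of the 6 samples were joined into regions, which gave 122 regions at these genes of 75961 in all and of 62098 near any protein-coding gene.

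SWI/SNF complexes use ATP to slide or evict nucleosomes and so open DNA to other factors. The BAF and PBAF forms are each built around 1 of the ATPases and a shared core. The BAF form carries an ARID1 subunit, and the PBAF form carries ARID2 with polybromo in its place. In blood formation these complexes are known for roles in stem cell maintenance and in lineage commitment.

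ATAC-seq, in which a transposase cuts and tags accessible DNA, was run on bone marrow cells of C57BL/6 mice left after magnetic removal of cells carrying mature lineage markers. There were 3 samples labelled UTX_WT and 3 labelled UTX_KO, and no agent or time point is given for either group. Utx (Kdm6a) encodes a histone H3 lysine demethylase of the COMPASS-like complexes. The age and sex of the mice, the deleted part of Utx, and the promoter or cell type of any Cre driver are not stated in the labels used here. The labels do not say that the samples came from separate animals, so p-values measure only the spread between these samples. Each sample had 1 list of peak coordinates without scores or read counts, so depth is unknown, and weaker signal and fewer open cells cannot be told apart.

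The wild-type lists held 57648 ± 257 peaks (SD, n = 3) and the knockout lists 46695 ± 3097 (n = 3), so list length changed by -19.0% before any gene was considered. Kdm6a itself had 4, 5 and 5 peaks in the wild-type samples and 6, 6 and 5 in the knockout samples, which checks no label because the deleted part is not known. Defining markers of stem and progenitor cells had peaks in every sample, 75 to 77 in wild type and 55 to 65 in knockout over 10 genes. Peaks were summed over the genes of a list, so a peak near several listed genes counted for each of them, while a region was not counted again. Markers of other cell types also had peaks, and their counts were not adjusted for list length. Before any adjustment for list length, the counts of dendritic genes and of T and NK genes overlapped between the genotypes. As a share of all peaks, granulocyte and monocyte genes made up 0.120% in wild type and 0.125% in knockout. T and NK genes made up 0.0341% and 0.0493%, dendritic genes 0.0919% and 0.106%, and B lymphoid genes 0.0838% and 0.169%. Shares were lower in knockout for erythroid genes (0.123% and 0.0522%), megakaryocyte genes (0.0619% and 0.0414%) and stem and progenitor genes (0.132% and 0.127%). The same held for mast and basophil genes (0.0341% and 0.0249%) and stroma and endothelium genes (0.0289% and 0.0242%). Erythroid genes had 68 to 74 peaks in wild type and 24 to 25 in knockout, with 32 of 72 regions lost, and megakaryocyte genes had 35 to 37 and 17 to 21, with 11 of 42 lost. B lymphoid genes had 44 to 52 and 69 to 86, with 19 of 83 regions gained. T and NK genes, of which Gzmb had no peak, had 18 to 22 peaks in wild type and 22 to 24 in knockout. Of their 27 regions, 4 were gained (14.8%) and 0 lost, and of 76 dendritic regions 6 were gained (7.89%) and 4 lost (5.26%). Near all protein-coding genes 4.05% of regions were gained and 10.7% lost. Granulocyte and monocyte genes had 64 to 72 and 53 to 63, dendritic genes 49 to 56 and 48 to 52, mast and basophil genes 17 to 21 and 9 to 13, and stroma and endothelium genes 15 to 19 and 10 to 13. The part of these cell types in the results at the SWI/SNF genes was not tested.

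A region was counted as lost where all 3 wild-type samples and 0 knockout samples had a peak, and as gained in the opposite case. Of the 122 SWI/SNF regions, 14 were lost (11.5%) and 5 were gained (4.10%). Over all regions near protein-coding genes, 10.7% were lost and 4.05% gained, so the SWI/SNF genes as a group stood near the background. A further 53 regions (43.4%) had a peak in all 6 samples, against 42.9% near all genes. Counted over regions open in all 3 samples of a genotype, 14 of 74 wild-type regions were lost (18.9%, against 17% near all genes) and 5 of 62 knockout regions were gained (8.06%, against 8.13%). At least 1 region was lost at 5 of the 9 genes and gained at 2. Among genes with at least 4 regions these shares were 48.3% and 18.4%. Counts by gene differed, with no test of the difference. The PBAF genes Arid2 and Pbrm1 had 8 of the 14 lost regions among 23 regions (34.8%) and 0 gained. The other 7 genes together had 6 lost and 5 gained of 99 regions. No loss or gain was found at Smarcc1, Smarcd2 and Arid1a.

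All SWI/SNF genes together had 89, 92 and 97 peaks in wild-type samples 1, 2 and 3 and 72, 86 and 80 in knockout samples 1, 2 and 3. The groups did not overlap (92.7 ± 4.04 against 79.3 ± 7.02, n = 3 each, two-sided exact permutation test, p = 0.1, the smallest p that 3 against 3 samples allow). The change of -14.4% was smaller than the -19.0% of the whole lists. As a share of each list, peaks at these genes made up 0.161% in wild type and 0.170% in knockout (n = 3 each, exact permutation p = 0.2). Bases covered by peaks were 62730 ± 2078 and 60103 ± 5274 (n = 3 each, exact permutation p = 0.5), and the groups overlapped. Bases covered by the whole lists changed by -15.6%. As a share of these, bases at the SWI/SNF genes made up 0.190% in wild type and 0.215% in knockout (n = 3 each, exact permutation p = 0.1). The shares did not overlap and were higher in knockout. Peak number was lower in every knockout than in every wild-type sample at 3 of the 9 genes (Smarca2, Arid2 and Pbrm1), against 27.6% of genes with a region. It was higher in every knockout sample at 0 of 9, against 4.24%. Covered bases were lower in every knockout sample at 4 of 9 genes (Smarca2, Arid1a, Arid2 and Pbrm1), against 49.4% of genes, and higher at 2 (Smarca4 and Smarcb1), against 9.9%. The background shares by gene given here include genes with fewer than 4 regions.

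**Figure D1:**
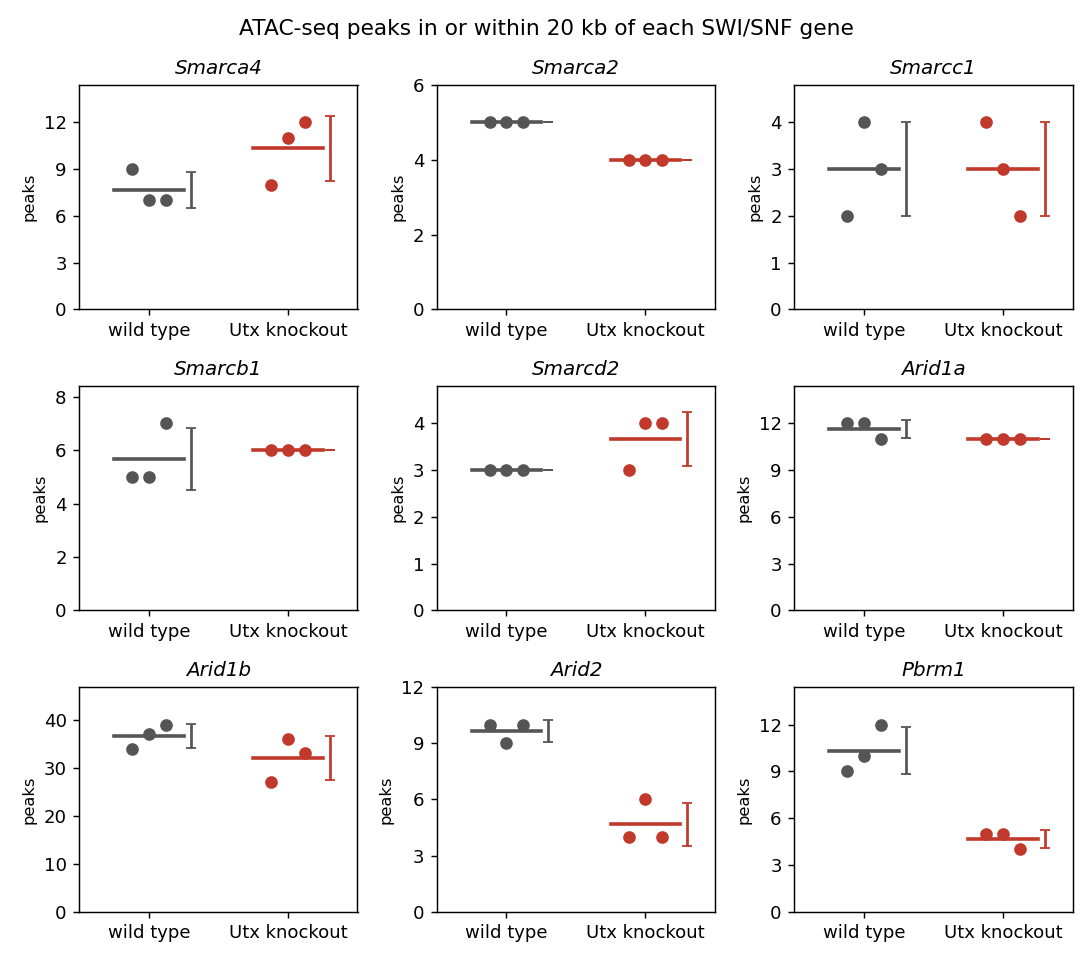
Number of ATAC-seq peaks in or within 20 kb of each SWI/SNF gene (vertical axis, peaks; each panel has its own scale from 0) in 3 wild-type and 3 Utx-knockout samples; points are samples, horizontal lines are means and bars are SD. Arid2 and Pbrm1 have 9 to 12 peaks in wild type and 4 to 6 in knockout, while Smarca4 and Arid1b overlap between genotypes.

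Covered bases were also tested for 15211 genes with limma on log2(covered bp + 200), each sample centred on its median, with Benjamini-Hochberg adjustment over all of them at 0.05. The test called 18.5% of genes lower and 20.7% higher in knockout. Of the 9 SWI/SNF genes, Pbrm1 fell and Smarca4, Smarcb1 and Smarcc1 rose; the median over the 9 was 0.20 against 0.03 over all genes tested. Centring matters here, because without it the median gene moved by -0.24. Without centring, 6453 genes were lower and 1143 higher, so that the share of calls in the higher direction went from 52.7% to 15.0%. Smarca4 and Smarcb1 still rose and Pbrm1 still fell, Arid2 and Arid1a also fell, and Smarcc1 passed in neither direction. Fold changes on this scale understate changes of genes with few covered bases.

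Promoter sequences show the start sites that the regions described next surround. RefSeq sequences (GRCm38.p6, the assembly of mm10; 250 bases before to 50 after the start) matched 8 of the 9 genes, with 9 promoters in all; Arid2 was not matched. Of these, 8 overlapped a region with peaks in all 6 samples, and the promoter of Smarcd2 overlapped none. The start site listed for Smarcd2, a gene on the minus strand, lies at 106267632 inside the gene span, and the region over the higher-coordinate end of that span had peaks in all 6 samples. The promoters of Smarca4 (chr9:21615919-21616218, plus strand) and Pbrm1 (chr14:31018888-31019187, plus strand) are given because they belong to the genes with a gained cluster and with a lost region close to the start site. That of Smarcc1 (chr9:110131774-110132073, plus strand) is given because it held the ETS letters. Capitals mark matches, on either strand, to the motifs searched.
Smarca4 promoter: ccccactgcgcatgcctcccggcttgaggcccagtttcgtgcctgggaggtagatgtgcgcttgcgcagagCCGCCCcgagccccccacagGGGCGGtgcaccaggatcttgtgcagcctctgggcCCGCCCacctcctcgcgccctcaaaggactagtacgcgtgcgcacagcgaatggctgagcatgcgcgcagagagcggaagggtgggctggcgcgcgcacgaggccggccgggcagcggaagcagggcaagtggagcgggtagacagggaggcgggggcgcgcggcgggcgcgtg
Pbrm1 promoter: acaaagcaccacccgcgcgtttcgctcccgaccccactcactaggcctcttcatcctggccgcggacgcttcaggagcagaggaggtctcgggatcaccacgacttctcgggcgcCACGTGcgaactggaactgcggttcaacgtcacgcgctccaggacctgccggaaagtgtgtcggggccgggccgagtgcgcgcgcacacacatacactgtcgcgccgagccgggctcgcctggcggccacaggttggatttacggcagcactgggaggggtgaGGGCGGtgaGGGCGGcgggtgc
Smarcc1 promoter: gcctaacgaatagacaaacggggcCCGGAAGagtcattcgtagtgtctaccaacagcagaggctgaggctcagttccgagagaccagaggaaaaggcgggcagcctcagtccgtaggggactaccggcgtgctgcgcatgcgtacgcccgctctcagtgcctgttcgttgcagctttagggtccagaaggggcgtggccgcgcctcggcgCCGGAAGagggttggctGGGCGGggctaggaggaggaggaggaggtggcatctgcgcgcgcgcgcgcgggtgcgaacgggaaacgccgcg
A set of 8 motifs was searched on both strands. GGGCGG, the letters of SP/KLF factors, was in 9 of 9 SWI/SNF promoters, against 46.2% of 21263 promoters of protein-coding genes. Arid1a gave 2 of the 9. The SWI/SNF promoters held 55% to 79.7% G and C, against a median of 56.3% over all promoters. Base composition was not taken into account in any of these motif shares. The ETS letters CCGGAAG were in the promoters of Smarca2 and Smarcc1, against 11.6% of all promoters. The E-box CACGTG was in that of Pbrm1, against 7.84%. The TATA box, searched as TATAAA, was in that of Smarcd2, against 12.6%. The GATA letters AGATAA were in 0 of 9 SWI/SNF promoters, against 9.65% of all. The NFY letters CCAAT were in 0 of 9 as well, against 38.2%. The same held for YY1 (AAGATGGC, 3.05% of all) and for the palindrome of NRF1 (1.33%). A match describes letters in the window, and binding of a factor was not measured.

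Smarca4, which encodes the ATPase BRG1, spans chromosome 9 from 21616106 to 21704230 and had 12 regions, of which 0 were lost and 2 gained. The gained share, 16.7%, was reached or passed by 8.17% of genes with at least 4 regions. Covered bases were 4850, 4440 and 4100 in wild-type samples 1, 2 and 3 and 5358, 7756 and 7802 in knockout samples 1, 2 and 3. Every knockout sample was above every wild-type sample (4463 ± 376 against 6972 ± 1398, n = 3 each, exact permutation p = 0.1). In the fit over all genes Smarca4 rose by 0.88 ± 0.15 on the log2 scale (SE, limma, adjusted p = 0.00357). The increase lay inside the gene, where 1804, 1457 and 1315 bases were covered in wild type and 3057, 4730 and 5202 in knockout. Peak numbers overlapped, with 9, 7 and 7 in wild type and 8, 11 and 12 in knockout (exact permutation p = 0.2).

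The Smarca4 gains formed a cluster about 8 to 12 kb inside the gene. The region at 21624415 to 21626146 was open in all 6 samples. It covered 897, 705 and 469 bases in wild type and 1138, 1654 and 1732 in knockout. Relative to shared regions in general it widened by 1.21 ± 0.25 (log2, SE, limma, adjusted p = 0.0213). The call was lost without wild-type sample 2 (adjusted p = 0.0542), knockout sample 2 (0.0726) or knockout sample 3 (0.0644), with limma in each. The adjacent region at 21626348 to 21627036 had no wild-type peak and covered 617, 538 and 638 bases in the knockout samples. The next, at 21627361 to 21628285, had none in wild type and 554, 670 and 903 bases in knockout. A smaller region nearer the start, 21618622 to 21619111, had peaks in knockout samples 2 and 3 alone. At the start site itself (21615579 to 21617612) the groups overlapped, with 1366, 1224 and 1267 bases in wild type and 1169, 2019 and 1798 in knockout.

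**Figure D2:**
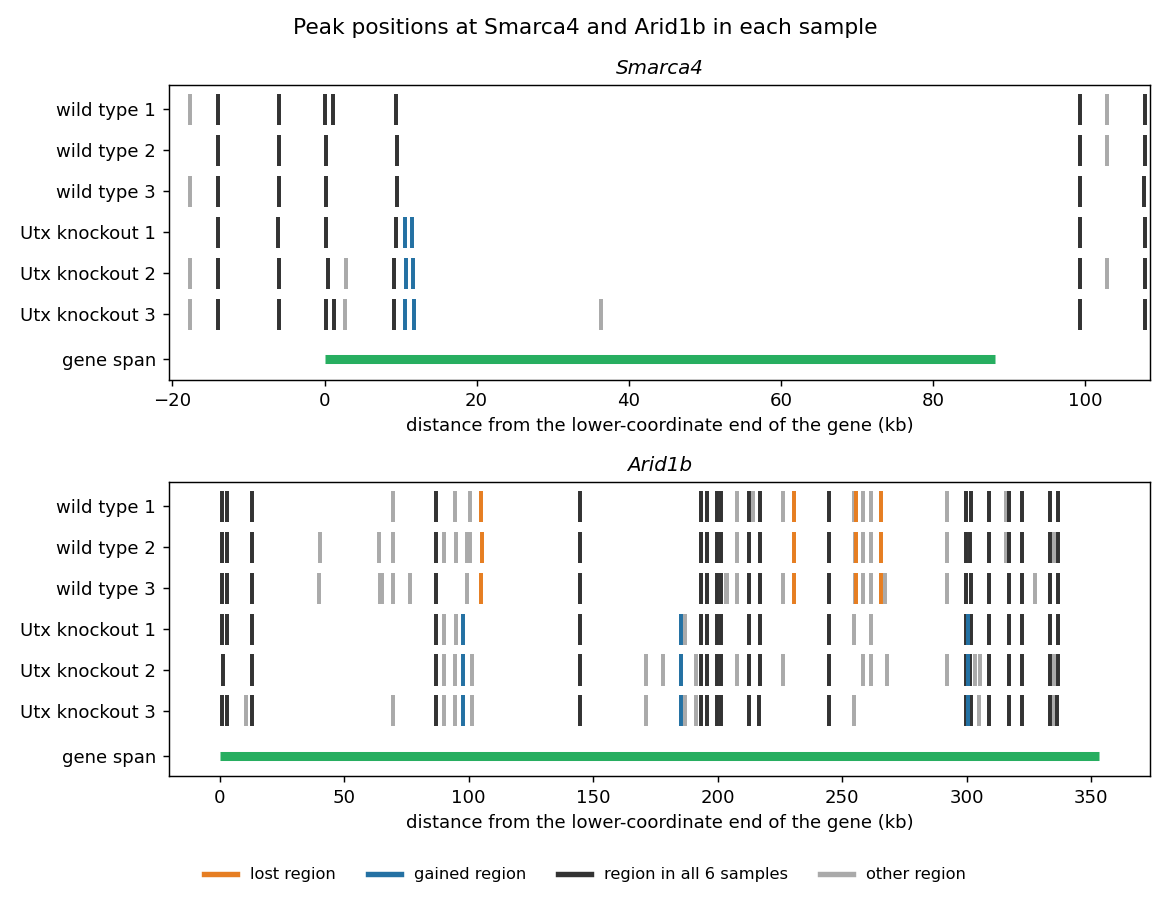
Peaks of each sample along Smarca4 and Arid1b, against distance in kb from the lower-coordinate end of the gene, with 1 row per sample; each tick is 1 peak, coloured by whether its region was lost, gained, in all 6 samples or other, and tick width is not peak width. Inside Smarca4 the knockout rows carry the ticks of 2 gained regions that the wild-type rows lack, and Arid1b has 4 lost and 3 gained regions along its length.

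Smarca2, which encodes the alternative ATPase BRM, spans chromosome 19 from 26605073 to 26778321 and had 5 regions, 1 of them lost. This lost share, 20%, was reached or passed by 24.3% of genes with at least 4 regions. It had 5 peaks in each wild-type sample and 4 in each knockout sample (exact permutation p = 0.1). The difference was the lost region at 26613016 to 26613458, inside the gene, which covered 230, 275 and 443 bases in the wild-type samples. The other 4 regions were open in all 6 samples. Covered bases were 4416, 4328 and 4512 in wild type and 3808, 3859 and 4202 in knockout, without overlap. Over all genes the centred difference was 0.12 (limma, adjusted p = 0.297).

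Among the core subunits, Smarcb1, a tumour suppressor of rhabdoid tumours, had the larger difference, but outside its gene. The gene spans chromosome 10 from 75896769 to 75921614, and its window had 3148, 3103 and 3631 covered bases in wild type and 4389, 4995 and 5312 in knockout. The groups did not overlap (exact permutation p = 0.1), and Smarcb1 rose by 0.82 ± 0.10 (log2, SE, limma, adjusted p = 0.000789). Inside the gene the values were 673, 710 and 933 in wild type and 679, 679 and 722 in knockout, which overlapped. The difference lay in 3 regions beyond the gene that were nearer to other genes. The region at 75932065 to 75932989, nearest to the metalloproteinase gene Mmp11, had 223, 0 and 201 bases in wild type and 544, 565 and 925 in knockout. That at 75935577 to 75936578, nearest to Chchd10, had 697, 796 and 733 and then 935, 1001 and 983; it widened by 0.45 ± 0.09 (log2, SE, limma, adjusted p = 0.0213; 0.0521 to 0.0684 without wild-type samples 1 or 3 or knockout samples 2 or 3). That at 75937004 to 75938636 had a peak in wild-type sample 3 alone (295 bases) and 1042, 1245 and 1299 bases in knockout. In all 3 regions every knockout sample was above every wild-type sample. The lost region counted for Smarcb1, 75939918 to 75940284, was nearest to Gm867 and covered 367, 238 and 209 bases in wild type. It was 1 of 8 regions, a lost share of 12.5% that 38.5% of genes with at least 4 regions reached or passed.

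Smarcc1, a scaffold subunit on chromosome 9 (110132024 to 110240178), had 4 regions, none lost or gained. Covered bases were 2936, 3070 and 3236 in wild type and 2940, 3042 and 3082 in knockout, and the groups overlapped. Relative to all genes it rose by 0.25 ± 0.08 (log2, SE, limma, adjusted p = 0.0359), which was -0.03 without centring (adjusted p = 0.795). The call was also lost when any sample but knockout sample 2 was left out (limma, adjusted p 0.0645 to 0.105). Smarcd2, a subunit known for its role in granulocyte maturation, spans chromosome 11 from 106263171 to 106272998 and had 4 regions, none lost or gained. It had 2937, 2913 and 3114 bases in wild type and 2730, 3082 and 2691 in knockout, also overlapping (limma, centred log2 difference 0.20, adjusted p = 0.0531). The region over its higher-coordinate end, 106272187 to 106273449, covered 1216, 1255 and 1256 bases in wild type and 1190, 1162 and 1061 in knockout, without overlap. A region inside Smarcd2, 106269129 to 106269459, had peaks in knockout samples 2 and 3 alone.

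The BAF subunits Arid1a and Arid1b are alternative DNA-binding members of the same complex. Arid1a (chromosome 4, 133679008 to 133756769) had peaks in all 6 samples at 9 of 10 regions, and 0 regions were lost or gained. Its covered bases were 10316, 10875 and 10552 in wild type and 8686, 9554 and 8910 in knockout. These did not overlap (exact permutation p = 0.1), but the change of -14.5% was close to the -15.6% of bases covered by the whole lists. The centred value was 0.05 (limma, adjusted p = 0.602), and -0.22 without centring (limma, adjusted p = 0.0468). The region at 133671092 to 133674489, outside Arid1a and nearest to Pigv, a gene of GPI anchor synthesis, narrowed from 2687, 2575 and 3182 bases to 1827, 2128 and 1850 (limma, log2 -0.48 ± 0.11, SE, adjusted p = 0.0293; 0.0562 to 0.0975 when any sample but wild-type sample 2 was left out).

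Arid1b, at 353360 bp the longest of the 9 genes (chromosome 17, 4994297 to 5347656), had 56 regions, 4 lost and 3 gained, all inside the gene. Peak numbers were 34, 37 and 39 in wild type and 27, 36 and 33 in knockout, and overlapped (exact permutation p = 0.2). Covered bases were 19468, 19668 and 20845 in wild type and 17300, 22080 and 20777 in knockout (exact permutation p = 1). The lost and gained shares, 7.14% and 5.36%, were reached or passed by 46.5% and 17.4% of genes with at least 4 regions. The lost regions were at 5098996 to 5099785 (744, 564 and 790 bases in wild type), 5224956 to 5225300 (271, 321 and 331), 5249875 to 5250199 (298, 325 and 295) and 5259854 to 5260186 (285, 333 and 285). The gained regions were at 5091459 to 5092364 (793, 743 and 787 bases in knockout), 5179171 to 5179815 (587, 309 and 645) and 5294541 to 5295079 (270, 467 and 401). Without knockout sample 1 the gained count at Arid1b was 7, and without wild-type sample 1 the lost count was 7.

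Of the 53 regions kept in all 6 samples, the one with the largest width difference was also in Arid1b. The region at 5329718 to 5331873, inside the gene, covered 384, 440 and 328 bases in wild type and 1746, 1824 and 2119 in knockout. It widened by 2.37 ± 0.14 (log2, SE, limma, adjusted p = 0.000298), and by 2.26 to 2.47 with each sample left out, past the threshold each time. Another region, at 5083729 to 5084861, had a peak in wild-type sample 2 alone (219 bases) and 695, 738 and 1133 bases in knockout. Another, at 5295445 to 5296242, covered 609, 533 and 509 bases in wild type and 617, 798 and 748 in knockout (log2 0.44, limma, adjusted p = 0.0458; 0.0614 to 0.127 when any sample but knockout sample 1 was left out).

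The PBAF subunit genes had the highest lost shares of the 9. Arid2, the DNA-binding subunit of that form, spans chromosome 15 from 96287522 to 96405463. It had 10, 9 and 10 peaks in wild type and 4, 6 and 4 in knockout (9.67 ± 0.577 against 4.67 ± 1.15, n = 3 each, exact permutation p = 0.1). Every knockout sample was below every wild-type sample. Of its 11 regions, 5 were lost, a share reached or passed by 2.70% of the 11256 genes with at least 4 regions. The lost regions were 96312786 to 96313294 (320, 417 and 509 bases in wild type), 96330332 to 96330948 (344, 564 and 590), 96342877 to 96343298 (272, 352 and 422) and 96344787 to 96345368 (441, 409 and 543) inside the gene. The remaining lost region, 96277080 to 96277409, lay outside and nearest to Gm38469 (265, 330 and 243). The region over the lower-coordinate gene end (96284726 to 96289122) was open in all samples, with 3949, 4007 and 4085 bases in wild type and 3981, 4315 and 4081 in knockout. Covered bases were 7332, 7517 and 8528 in wild type and 5136, 6135 and 5254 in knockout, without overlap. The centred log2 difference was -0.21 ± 0.08 (SE, limma, adjusted p = 0.0725), and -0.49 without centring (adjusted p = 0.00693).

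Pbrm1 encodes polybromo, whose bromodomains bind acetylated histones, and spans chromosome 14 from 31019138 to 31121592. It had 9, 10 and 12 peaks in wild type and 5, 5 and 4 in knockout (10.3 ± 1.53 against 4.67 ± 0.577, n = 3 each, exact permutation p = 0.1), again without overlap. Of its 12 regions, 3 were lost, a share reached or passed by 16.9% of genes with at least 4 regions. One, 31017829 to 31018251, lay 887 bp upstream of the start site and nearest to Gnl3, and covered 416, 398 and 404 bases in wild type. The others were inside the gene, at 31045771 to 31046197 (335, 346 and 409 bases) and 31110654 to 31110997 (210, 240 and 344), the latter also in Smim4. The start-site region (31018463 to 31019693), which holds the promoter printed above, was open in all samples with 1194, 977 and 1022 bases in wild type and 935, 871 and 834 in knockout. Covered bases were 5871, 5891 and 6592 in wild type and 3852, 3844 and 3733 in knockout, and Pbrm1 fell by 0.38 ± 0.08 on the centred log2 scale (SE, limma, adjusted p = 0.00655). Without wild-type sample 1 the lost count was 5.

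**Figure D3:**
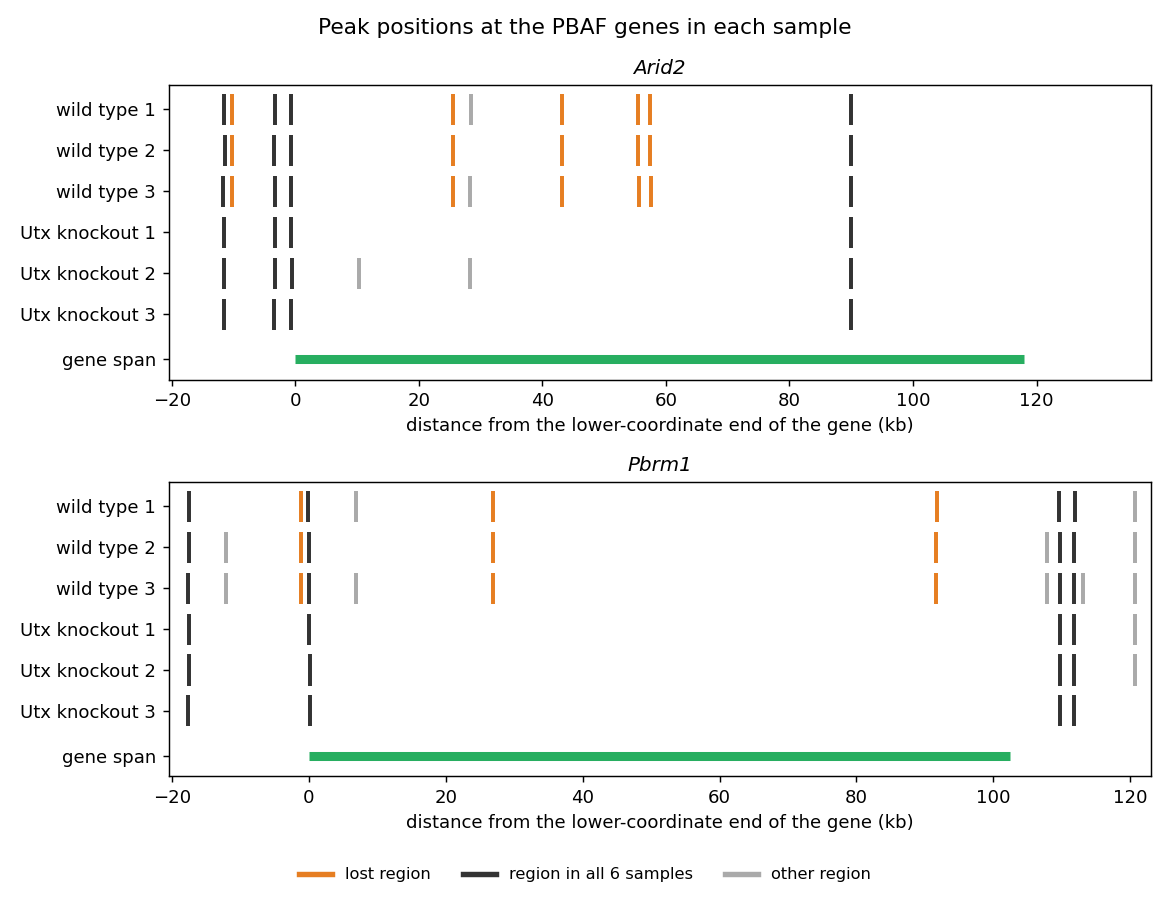
Peaks of each sample along Arid2 and Pbrm1, against distance in kb from the lower-coordinate end of the gene, with 1 row per sample; each tick is 1 peak, coloured by the class of its region, and tick width is not peak width. The lost regions, 5 at Arid2 and 3 at Pbrm1, have ticks in the 3 wild-type rows and in 0 knockout rows, while the regions at the lower-coordinate gene ends have ticks in all 6.

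Peaks at the PBAF genes summed to 19, 19 and 22 in wild type and 9, 11 and 8 in knockout, and those at the BAF genes to 46, 49 and 50 and to 38, 47 and 44. Per 100 BAF peaks there were 41.3, 38.8 and 44.0 PBAF peaks in wild type and 23.7, 23.4 and 18.2 in knockout. The groups did not overlap, but the ratio was chosen after the values were seen and carries no test. Over all 9 genes the mean number of wild-type bases covered in a lost region was 265 to 699 with a median of 332 bp, against 365 bp for lost regions near all genes. With the same number of the widest peaks taken from each sample, 3 regions were lost at Arid2 and 2 at Pbrm1. With the widest 50% of peaks the counts were 2 and 0.

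Of the 12 regions within 1 kb of a gene end, 10 had peaks in all 6 samples and 1 was lost. Inside the genes there were 90 regions, 11 lost (12.2%) and 5 gained (5.56%), and outside there were 32, with 3 lost (9.38%) and 0 gained. Arid1b alone had 56 regions, all inside the gene. Near all protein-coding genes 10.7% of regions were lost and 4.05% gained. Shares over all genes were not computed for gene ends, inside or outside apart, so no trait of the SWI/SNF genes can be read from these counts. At the 53 regions open in all samples, width relative to the median shared region was narrower in knockout at 31 and wider at 22. Of the 26641 shared regions near all genes, 15505 were narrower and 11136 wider, a similar share. Every knockout sample was narrower than every wild-type sample at 10 of the 53, against 20.7% of shared regions near all genes. Every knockout sample was wider at 8 of the 53, against 15.5%. In limma over 31159 shared regions, 7.14% narrowed and 7.62% widened; of the 53, the 1 at Arid1a narrowed and 4 widened, those at Smarca4 and Smarcb1 and the pair at Arid1b.

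**Figure D4:**
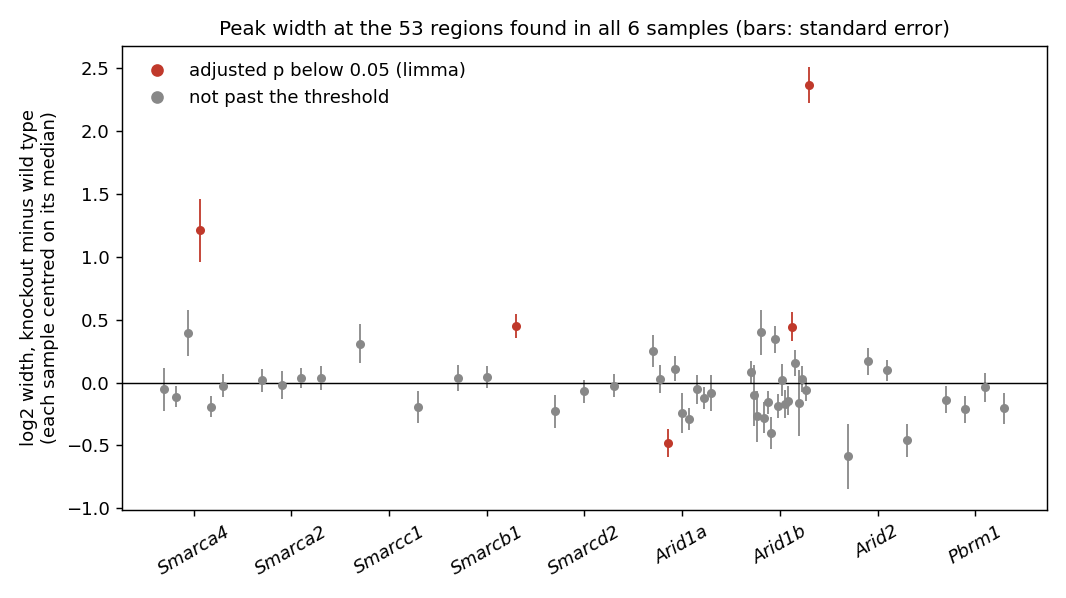
Difference in width between knockout and wild type (vertical axis, log2, centred on the median shared region of each sample) for the 53 regions with a peak in all 6 samples, by gene; points are regions, bars are standard errors, and red points passed limma at an adjusted p of 0.05. Most points lie near 0, and 1 Arid1b region at 2.37 stands above the rest.

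The remaining subunits of the complex, 20 genes listed by name, had 147 regions, of which 21 were lost (14.3%) and 6 gained. They had 119, 119 and 124 peaks in wild type and 92, 96 and 84 in knockout. Dpf3, a histone-reading BAF subunit, had 6 of 13 regions lost, with 10, 10 and 12 peaks in wild type and 3, 2 and 3 in knockout. Dpf2, its paralogue, had 3 of 9 lost, with 8, 10 and 9 peaks and then 6, 5 and 5. Phf10, a PBAF subunit, had 2 of 5 lost, with 4, 3 and 4 peaks and then 1, 1 and 1. Actl6a, an actin-related subunit, had 2 of 4 lost, with 4 peaks in each wild-type and 2 in each knockout sample. Peak number was lower in every knockout than in every wild-type sample at 8 of the 20 genes, these 4 with Bicral, Smarcd1, Bcl7c and Brd9, against 27.6% of genes with a region. That background includes genes with fewer than 4 regions. Bicral had 3 of 15 regions lost, Bicra 2 lost and 3 gained of 19, and Smarce1 1 lost and 1 gained of 5. Brd7, the other PBAF subunit on the list and named after its values were seen, had 0 of 4 lost, with 3, 3 and 2 peaks in wild type and 3 in each knockout sample. The larger lost shares named here were at both BAF and PBAF genes, Dpf3 (46.2%) and Dpf2 (33.3%) beside Arid2 (45.5%), Phf10 (40%, of 5 regions) and Pbrm1 (25%). The median share was 0% over these 20 genes and 0% over all genes with at least 4 regions, of which 48.3% had a lost region. The shares of Arid2 and Pbrm1 were reached or passed by 2.70% and 16.9% of those genes. For Dpf3, Dpf2 and Phf10 this was not computed. Neither every PBAF gene (Brd7, 0 of 4) nor every BAF gene (Arid1a, 0 of 10) had a lost region.

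Other chromatin regulators gave a scale for these counts. Near all protein-coding genes 10.7% of regions were lost and 4.05% gained. The genes named are those of each list with the most lost plus gained regions. Other ATP-dependent remodellers had 17 of 173 regions lost (9.83%) and 4 gained (2.31%). Of these, Smarca5 had 3 of 6 lost, Chd1 3 lost and 2 gained of 14, and Chd9 2 lost and 1 gained of 29. Polycomb genes had 17 of 150 lost and 3 gained, with 4 of 13 lost at Phc2, 3 of 9 at Ezh1, and 2 lost and 1 gained of 17 at Kdm2b. COMPASS genes had 7 of 93 lost (7.53%) and 2 gained (2.15%), with 2 of 11 lost at Kmt2d, 2 of 11 at Setd1a and 2 of 10 at Dpy30.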

How the data were processed

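The authors deposited 1 peak list per sample with chromosome, start and end alone. Per the submitters' processing notes, the caller was MACS2 and the build mm10, without version numbers. The aligner, read filters, insertion-site shift and duplicate handling were not given in the sources used here. The genes and lists were chosen with earlier results of these data known. All 9 genes and each of their lost or gained regions are named; of the other subunits the 6 with the most lost plus gained regions (7 with ties), and of each other list at most 3. Brd7, Smarcd1, Bcl7c and Brd9 were named after their values were seen.

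Peaks were merged at 1 bp overlap and assigned to RefSeq gene spans (GRCm38.p6) within 20 kb. The annotation used here has no exons, so positions are inside or outside a gene. Single values per sample were tested by exact two-sided permutation over 20 splits. Covered bases (pseudocount 200 bp, mean at least 500 bp) and widths of shared regions were fitted with limma 3.58.1 in R 4.3.3, with Benjamini-Hochberg adjustment; the procedures were tested on simulated data. At an unadjusted p under 0.05 there were 7479 genes and 9478 regions. Alternatives covered left-out samples, peak selection, overlap, distance, centring, pseudocount, filters and a replicate block.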

Additional observations from a re-analysis of the deposited data

How the results depend on the processing

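The 14 lost regions were 14 to 21 with each sample left out, 6 when only the widest 50% of peaks entered, 8 when all lists were shortened to 44576 peaks, 24 where 2 of 3 samples sufficed, and 8 among joined regions at least 400 bp wide from end to end, a limit chosen after seeing the data. The 5 gained regions were 5 to 11 with each sample left out (11 without knockout sample 1), 8 with shortened lists, 8 where 50% of a region had to be covered, 12 where 2 of 3 samples sufficed, and 8 within 50 kb.

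The difference in share of peaks of 0.00916 percentage points was -0.000748 with shortened lists. The difference in covered bases of -2627 was -4749 to 325 with each sample left out (325 without knockout sample 1), 472 with shortened lists and 1508 within 50 kb. The mean width difference of 0.02 at shared regions was -0.0062 to 0.066 with each sample left out (-0.0062 without knockout sample 2) and -0.034 without centring. The cause was not tested.

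The 4 genes past the covered-base test were 3 to 4 with each sample left out and 5 without centring. The 5 shared regions past the width test were 1 to 5 with each sample left out: 2 without wild-type sample 1, 3 without wild-type sample 3, 2 without knockout sample 2 and 1 without knockout sample 3. Without centring, log2 differences in covered bases turned to -0.15 at Smarca2, -0.026 at Smarcc1, -0.073 at Smarcd2, -0.22 at Arid1a and -0.0026 at Arid1b. The share of width calls that were wider was 51.6% with centring and 41.7% without.

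Same-numbered samples did not deviate together (r = -0.05, 0.03 and 0.02), and neither did differently numbered ones (r = -0.10 to 0.08). These values cannot show whether same-numbered samples were prepared as pairs, and the labels do not say so. With a replicate block, the number of genes past the test was 3 and of shared regions 1, and the difference in peaks of -13.3 had an exact sign-flip p of 0.25, the smallest that 3 pairs allow.

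The lists carry no depth, so a missing peak and signal under the caller's threshold cannot be told apart.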
